A study of Mus musculus with 6 samples.

Results

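Carboxypeptidase E (Cpe) and the genes that work with it on peptide hormones were examined in stria vascularis of mice without pendrin. The set held 10 genes listed by name. These were Cpe, the convertases Pcsk1 and Pcsk2, their partners Pcsk1n and Scg5, the amidating enzyme Pam, and the granins Scg2, Scg3, Chga and Chgb. The annotation used here named 10 probe sets for 9 of these genes, among 45037 probe sets and 18193 genes compared on the arrays, and no probe set for Pcsk2. Cpe was chosen on its difference between the genotypes in these arrays. The values of Cpe are therefore a description without a test, and the others were listed beside it for their role, also with results of these arrays known.

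Stria vascularis lines the lateral wall of the cochlea, secretes the K+ of endolymph and sets up the endocochlear potential. Its RNA was measured on 3 Affymetrix mouse genome arrays from Slc26a4+/+ mice, the wild type, and on 3 from Slc26a4-/- mice, which lack the anion exchanger pendrin in all tissues. All mice were adult and of strain 129S6, and each array carried the pooled RNA of 2 animals, taken without perfusion to remove blood and amplified in 2 rounds. Slc26a4, the targeted gene, had signals of 1354, 1262 and 793 in Slc26a4+/+ and of 520.2, 717 and 618.5 in Slc26a4-/-. These signals do not check the genotype, since no source used here gives the place of the probe set relative to the disrupted part.

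Peptide hormones are made as longer precursors and sorted into secretory granules. There a convertase cuts the precursor after basic residues, Cpe removes the basic residues left at the new end, and Pam turns a terminal glycine into an amide. Granins are acidic proteins that fill these granules. The pathway is best known from neurons and from endocrine cells such as those of the pituitary, the pancreatic islet and the adrenal medulla.

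Upstream sequence was available for 9 of the 10 listed genes, all except Cpe, from RefSeq in the build GRCm38.p6. The full cAMP response element TGACGTCA, searched on both strands in the 250 bases before each start, lay in 3 of these 9 genes and in 1.55% of 32851 such windows. The shorter element TGACG, which the full element contains, was found in 7 of 9 genes and in 17.8% of windows. GGGCGG was found in 6 of 9 genes and in 32.7% of windows. TATAAA was found in 0 of 9 genes and in 12.4% of windows. The windows of the 3 genes with the full element are shown because they are the granule genes that share it, and that of Pam because it was the other member above background on these arrays. Capitals mark the full element, which ended 71, 61 and 65 bases before the start in Pcsk1, Scg2 and Chgb. Pcsk1 lies at chr13:75089607-75089856 on the + strand, Scg2 at chr1:79440027-79440276 on the - strand, Chgb at chr2:132781392-132781641 on the + strand, and Pam at chr1:98095647-98095896 on the - strand.
Pcsk1: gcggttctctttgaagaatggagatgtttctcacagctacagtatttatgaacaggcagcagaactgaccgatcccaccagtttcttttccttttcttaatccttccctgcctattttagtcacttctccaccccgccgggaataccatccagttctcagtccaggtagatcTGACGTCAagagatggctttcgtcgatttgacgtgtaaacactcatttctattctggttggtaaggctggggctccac
Scg2: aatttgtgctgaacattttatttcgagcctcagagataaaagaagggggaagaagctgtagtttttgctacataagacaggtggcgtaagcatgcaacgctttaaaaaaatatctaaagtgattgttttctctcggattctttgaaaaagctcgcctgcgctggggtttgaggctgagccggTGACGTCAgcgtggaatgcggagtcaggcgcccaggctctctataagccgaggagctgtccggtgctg
Chgb: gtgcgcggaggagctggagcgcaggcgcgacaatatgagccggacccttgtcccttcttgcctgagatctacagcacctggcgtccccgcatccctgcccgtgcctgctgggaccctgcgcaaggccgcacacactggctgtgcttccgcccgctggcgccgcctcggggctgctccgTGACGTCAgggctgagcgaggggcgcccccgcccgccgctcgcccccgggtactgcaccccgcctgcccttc
Pam: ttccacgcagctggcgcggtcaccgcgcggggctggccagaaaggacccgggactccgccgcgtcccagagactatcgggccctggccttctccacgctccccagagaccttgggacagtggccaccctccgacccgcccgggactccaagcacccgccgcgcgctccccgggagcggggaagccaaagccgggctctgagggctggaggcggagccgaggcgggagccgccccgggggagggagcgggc
The window of Pam was 75.6% G and C, and those of Pcsk1 and Scg2 were 46.8% and 48.0%. Letters in these windows are a description and were not related to any signal.

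Values are signals as deposited, on a linear scale. Background was set on each array from 44 probe sets of olfactory receptors, as their 95th percentile, and lay between 187 and 319. The arrays differed in more than genotype. The 3′ over 5′ signal ratio of Gapdh, which rises as RNA is degraded, was 2.25, 7.19 and 10.5 in Slc26a4+/+ and between 3.34 and 3.80 in Slc26a4-/-. The signal of Xist, which the inactive X chromosome transcribes, was 771, 3358 and 1022 in Slc26a4+/+ and lay between 5530 and 5863 in Slc26a4-/-. The Y-linked gene Eif2s3y had signals of 639.9 to 1541 in Slc26a4+/+ and of 3.10 to 3.60 in Slc26a4-/-. The sex of the pooled animals thus differed between the genotypes, and effects of sex and of genotype cannot be told apart here. Nothing states that the pools were independent litters, so that p-values measure only the spread between these arrays.

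Cpe had a signal of 778, 445 and 249.7 in Slc26a4+/+ and of 8689, 7929 and 9097 in Slc26a4-/-. All Slc26a4-/- arrays were far above all Slc26a4+/+ arrays, and the lowest of them was 10.2 times the highest Slc26a4+/+ array. The mean signal was 491 ± 267 in Slc26a4+/+ against 8572 ± 593 in Slc26a4-/- (SD, n = 3 arrays). The log2 difference was 4.27 (SE 0.33), a 19.4-fold higher signal. The Slc26a4+/+ arrays spread by 3.12-fold and the Slc26a4-/- arrays by 1.15-fold. In Slc26a4+/+ the signal was above background on replicate 1 (778 against 199.7) and on replicate 2 (445 against 269.5). On replicate 3 it was below background (249.7 against 319.2), and replicate 3 was also the array with the highest Gapdh ratio. Without this array the log2 difference was 3.86, and without replicate 1, where Cpe was highest among the Slc26a4+/+ arrays, it was 4.68. The summed signal of 13 macrophage markers differed along with Cpe, at 8508 to 11061 in Slc26a4+/+ and 44646 to 45737 in Slc26a4-/-, and so did that of 9 markers of spiral ligament fibrocytes, at 6673 to 10237 and 12508 to 14311. Their part in the signal of Cpe was not tested. In RNA of a whole tissue, a change in the number of cells of a type and a change in RNA per cell cannot be told apart. By RT-PCR the study found more contamination between stria vascularis and spiral ligament in Slc26a4-/- than in Slc26a4+/- mice. The part of such contamination in the signal of Cpe on these arrays was not tested.

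A second probe set named for Cpe did not show this pattern. Its signals were 152, 191 and 506 in Slc26a4+/+ against 407, 347 and 301 in Slc26a4-/-. The genotypes overlapped, and the highest value of all 6 arrays was that of Slc26a4+/+ replicate 3, the array on which the first probe set was lowest. Its mean was 283 ± 194 in Slc26a4+/+ against 352 ± 53.4 in Slc26a4-/- (SD, n = 3), a log2 difference of 0.51 (SE 0.40). It is of the class whose probes can also match other transcripts, and it was above background on 1 Slc26a4+/+ array and on 3 Slc26a4-/- arrays. Averaged over both probe sets, the log2 difference of Cpe was 2.39.

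**Figure D1:**
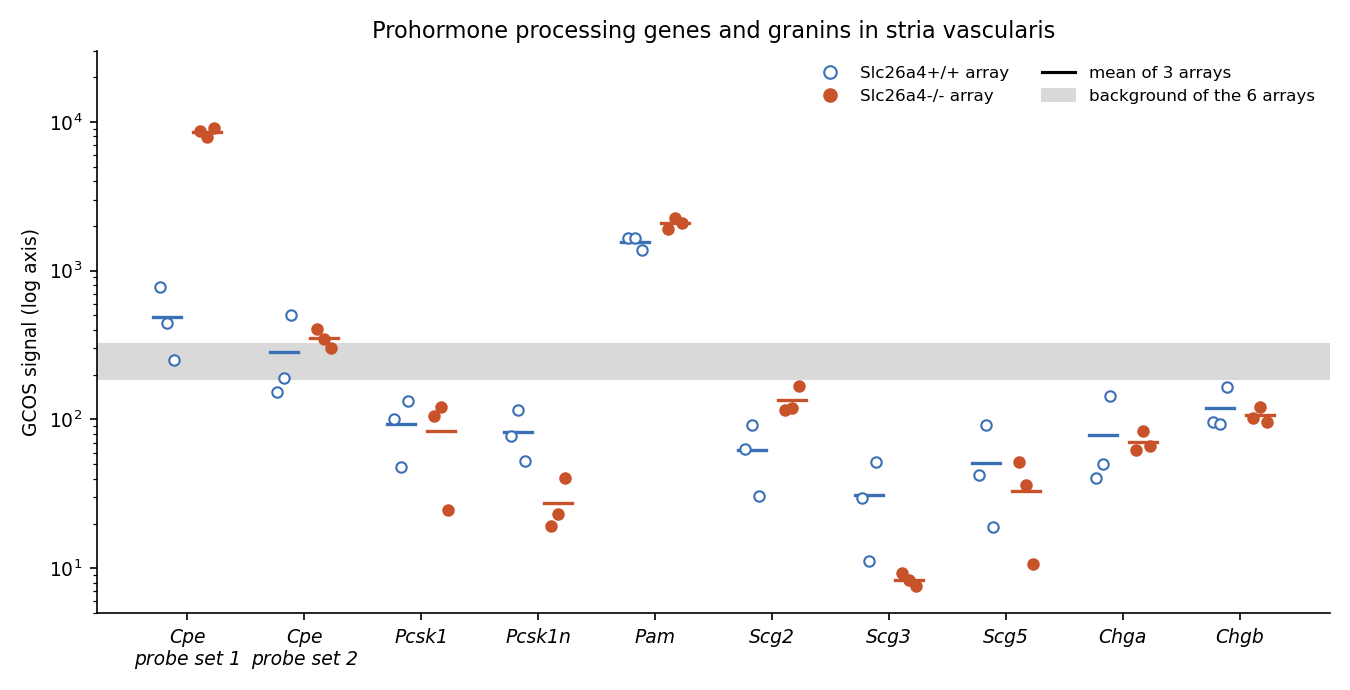
Signals of the 10 probe sets on each array, on a log axis, with open points for Slc26a4+/+, filled points for Slc26a4-/-, short lines for the mean of 3 arrays and a grey band for the range of background on the 6 arrays (187 to 319). The first Cpe probe set separated the genotypes, Pam was the other gene clearly above the band, and the 7 probe sets of the convertase, its partners and the granins lay below it.

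The enzyme that follows Cpe, Pam, had signals of 1661, 1664 and 1375 in Slc26a4+/+ and of 1892, 2243 and 2101 in Slc26a4-/-. The Slc26a4-/- arrays were all above the Slc26a4+/+ arrays, by a margin that was small beside that of Cpe. The mean was 1567 ± 166 in Slc26a4+/+ against 2079 ± 176 in Slc26a4-/- (SD, n = 3), and the log2 difference was 0.41 (SE 0.14, limma adjusted p = 0.271), 1.33-fold. Pam did not pass the test, nor in any of the 18 alternatives tried, in which its adjusted p was 0.0623 to 0.852.

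The convertase, its partners and the granins were below background on all 6 arrays. Pcsk1, which makes the first cuts in many precursors, had signals of 100.0, 47.9 and 134 in Slc26a4+/+ and of 105, 122 and 24.6 in Slc26a4-/-, and the genotypes overlapped. Pcsk1n, the precursor of an inhibitor of Pcsk1, had signals of 77.4, 116 and 52.7 in Slc26a4+/+ and of 19.4, 23.1 and 40.4 in Slc26a4-/-. Pcsk1n is an X-linked gene, and its 3 Slc26a4-/- arrays were all below its 3 Slc26a4+/+ arrays. Scg5, a chaperone that Pcsk2 needs to become active, had signals of 42.3, 92.5 and 19.1 in Slc26a4+/+ and of 51.7, 36.1 and 10.7 in Slc26a4-/-, with overlap.

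Among the granins, Scg2, the precursor of secretoneurin, had signals of 63.4, 92.1 and 30.8 in Slc26a4+/+ and of 117, 119 and 168 in Slc26a4-/-, and the arrays of the genotypes did not overlap. Scg3, which ties granin aggregates to the granule membrane, had signals of 29.7, 11.2 and 52.2 in Slc26a4+/+ and of 9.30, 8.30 and 7.60 in Slc26a4-/-, again without overlap and in the other direction. Chga, the chromogranin long used as a marker of endocrine tissue, had signals of 40.7, 49.9 and 144 in Slc26a4+/+ and of 62.5, 83.1 and 66.2 in Slc26a4-/-. Chgb, its relative, had signals of 96.5, 93.9 and 165 in Slc26a4+/+ and of 102, 122 and 96.1 in Slc26a4-/-. The values of both chromogranins overlapped between the genotypes. On Slc26a4+/+ replicate 3, the array with the highest background, Pcsk1, Scg3, Chga and Chgb each had their highest value of the 6 arrays. The signals of these 7 genes lay between 7.60 and 168, so no fold is given for them, and their adjusted p by limma was between 0.289 and 0.976.

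Of the 8 probe sets other than those of Cpe, 0 passed the test by limma at an adjusted p under 0.05, against 1.73% of all probe sets. At an unadjusted p under 0.05 there were 4, against 11.9% of all probe sets, and 3 of these 4, Pcsk1n, Scg2 and Scg3, were below background on every array. The methods' t-test, for which the arrays were paired here by replicate number, gave 0 with adjustment and 0 without. With array weights 1 of the 8 passed, Pcsk1n. Of all 10 probe sets, 3 had no overlap and were higher in Slc26a4-/- (Cpe, Pam and Scg2), and 2 had none and were lower (Pcsk1n and Scg3). Over all probe sets the shares without overlap were 8.46% higher and 9.40% lower. Since Cpe was chosen by this contrast, nothing is read from these shares. Of the 9 measured genes, 2, Cpe and Pam, were above background on at least 2 arrays of a genotype. The same count was found with the 90th or the 99th percentile as background. Pcsk1, its partners and the granins were thus not detectable above this background in either genotype.

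The other genes of the pathway were taken from 5 lists with 106 genes, of which 98 were measured and 44 were above background on at least 2 arrays of a genotype. By limma, 5 of the 98 were higher in Slc26a4-/- and 0 were lower, and 13 had an unadjusted p under 0.05, against 14.9% of all genes. The methods' t-test called 0 of these genes after adjustment, and 0 of all probe sets. Over all genes the shares were 1.88% higher and 0.803% lower. The median log2 difference was -0.01 over the 98 genes and -0.03 over all genes. Where 1 array decided the count, it was Slc26a4+/+ replicate 1, without which 10 genes passed, or any of the Slc26a4-/- arrays, without which 3 passed. These 3 were Agt, Cpxm2 and Syt4 each time. With the Xist signal as a covariate, which overlaps with the genotype, and also without the trend of the spread on the signal, 1 gene passed, Cpxm2.

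Of the 7 other carboxypeptidases of the family of Cpe, 3 were higher and 0 were lower, against 1.88% and 0.803% of all genes. Cpxm2, a secreted relative without the residues needed for catalysis, had signals of 1067, 855 and 1029.8 in Slc26a4+/+ and of 3143, 3430.0 and 3219 in Slc26a4-/-. The genotypes were far apart beside their spread, with means of 984 ± 113 and 3264 ± 149 (SD, n = 3) and a log2 difference of 1.74 (SE 0.14, adjusted p = 0.000304). A second probe set of Cpxm2, below background on all Slc26a4+/+ arrays, did not pass (adjusted p = 0.375). Aebp1, a matrix protein with a carboxypeptidase-like domain, had signals of 1185, 1836 and 1739 in Slc26a4+/+ and of 2999, 3330.4 and 3712 in Slc26a4-/-. Its log2 difference was 1.10 (SE 0.18, adjusted p = 0.0172), and a second probe set above background stood at 0.81 (adjusted p = 0.0505). The log2 difference of Aebp1 was 0.64 with the Xist covariate (adjusted p = 0.728). Aebp1 also lost its call without any of the Slc26a4-/- arrays (adjusted p of 0.0663 to 0.118).

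Cpm, a membrane-anchored enzyme that trims basic residues from peptides outside the cell, was below background on all Slc26a4+/+ arrays, with 64.2, 69.3 and 76.9. In Slc26a4-/- it had 228, 301 and 187, above background on 2 of the 3 arrays. It passed the test (adjusted p = 0.0349), no fold is given because the bound was under 1, and with replicate number as a block it did not pass (adjusted p = 0.0555). A second probe set of Cpm, below background on all 6 arrays, also passed (adjusted p = 0.0288). The call of the first was also lost without Slc26a4+/+ replicate 2 and without any of the Slc26a4-/- arrays (adjusted p of 0.0966 to 0.246). Cpd, the carboxypeptidase of the trans-Golgi network, had signals of 4691, 3733 and 5482 in Slc26a4+/+ and of 4514, 4314 and 4712 in Slc26a4-/- (adjusted p = 0.976). The remaining 3 of the list were below background on all arrays.

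Among 6 other convertases 0 were higher and 0 lower by limma, and 3 had an unadjusted p under 0.05, which 14.9% of all genes had. Pcsk6, which acts on growth factors outside the granule, had signals of 4645, 5048 and 4581 in Slc26a4+/+ and of 3630.2, 3030.1 and 2641 in Slc26a4-/-, a log2 difference of -0.63 (SE 0.15, adjusted p = 0.0785). The genotypes of Pcsk6 did not overlap. Pcsk5, its close relative, had signals of 333, 395 and 268 in Slc26a4+/+ and of 507, 492 and 516 in Slc26a4-/-, a log2 difference of 0.62 (SE 0.20, adjusted p = 0.226). Pcsk6 passed among probe sets above background on at least 3 arrays, with array weights and with all probe sets averaged for each gene, and Pcsk5 passed in none of the alternatives.

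Of 15 other enzymes that trim, modify or degrade peptides, 12 were above background, and 0 were higher and 0 lower by limma. An unadjusted p under 0.05, which 14.9% of all genes had, was found for 1 gene. That gene was Mme, the peptide-degrading neprilysin, with 2720.2, 1290.5 and 1433 in Slc26a4+/+ against 3208, 2621 and 3552 in Slc26a4-/- (log2 difference 0.86, SE 0.26, adjusted p = 0.184). Mme passed with array weights and without Slc26a4+/+ replicate 1. Anpep, aminopeptidase N, came next by p and was below background on all arrays. It had 49.3, 20.2 and 120 in Slc26a4+/+ against 121, 129 and 135 in Slc26a4-/- (adjusted p = 0.421). With array weights Anpep passed.

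Of 20 genes of the granule membrane and of release, 12 were above background. By limma 1 was higher and 0 were lower, against 1.88% and 0.803% of all genes. Syt4, a synaptotagmin of secretory vesicles, had signals of 4505, 3856 and 3221 in Slc26a4+/+ and of 10190.1, 8827 and 9990 in Slc26a4-/-. Its log2 difference was 1.34 (SE 0.16, adjusted p = 0.00276), with means of 3860.4 ± 642 and 9669 ± 736 (SD, n = 3). A second probe set of Syt4, above background on all arrays, had 1860, 1656 and 1739 in Slc26a4+/+ against 1664, 1626 and 1524 in Slc26a4-/- and did not pass (log2 difference -0.13, adjusted p = 0.776). The call of Syt4 rests on the brighter of its probe sets. Of Rab27a, a GTPase of granule transport, a probe set below background on all arrays passed (adjusted p = 0.0438) and the brightest did not (adjusted p = 0.824). Cyb561, which passes electrons into the granule to renew the ascorbate that Pam uses, had signals of 783, 738 and 834 in Slc26a4+/+ and of 1225, 1168 and 1144 in Slc26a4-/-. The arrays did not overlap, and the log2 difference of 0.59 (SE 0.14, adjusted p = 0.0813) did not pass. Cyb561 passed with array weights, among probe sets above background on at least 3 arrays, without Slc26a4+/+ replicate 3 and with probe sets averaged. Rph3al, a Rab effector of granules, had 382, 626 and 585 in Slc26a4+/+ against 383, 309 and 297 in Slc26a4-/- (adjusted p = 0.279). Rph3al passed with array weights and without Slc26a4+/+ replicate 1.

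Of 50 peptide precursors measured, 36 were below background on all arrays and 11 were above it on at least 2 arrays of a genotype. Agt, the precursor of the angiotensins, was the only precursor of the list that passed, where 1.88% of all genes were higher and 0.803% lower. It had signals of 508, 503 and 712 in Slc26a4+/+ and of 1754, 1793 and 2227 in Slc26a4-/-, means of 575 ± 119 and 1924 ± 263 (SD, n = 3) and a log2 difference of 1.75 (SE 0.18, adjusted p = 0.00149). Every Slc26a4-/- array was above every Slc26a4+/+ array. Angiotensinogen is known as a substrate of renin, an enzyme outside the convertase family. Igf1, an insulin-like growth factor, had 12927, 14728 and 15117 in Slc26a4+/+ against 11096, 10889 and 9837 in Slc26a4-/- (log2 difference -0.43, SE 0.14, adjusted p = 0.223). Igf1 passed with array weights and without Slc26a4+/+ replicate 1. Crh, the hypothalamic stress hormone, was below background on all arrays, with 6.30, 4.50 and 45.0 in Slc26a4+/+ against 2.80, 4.70 and 2.50 in Slc26a4-/- (adjusted p = 0.492). The precursors above background included Adm, Apln, Edn1, Nucb2 and Oxt, none of which passed.

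**Figure D2:**
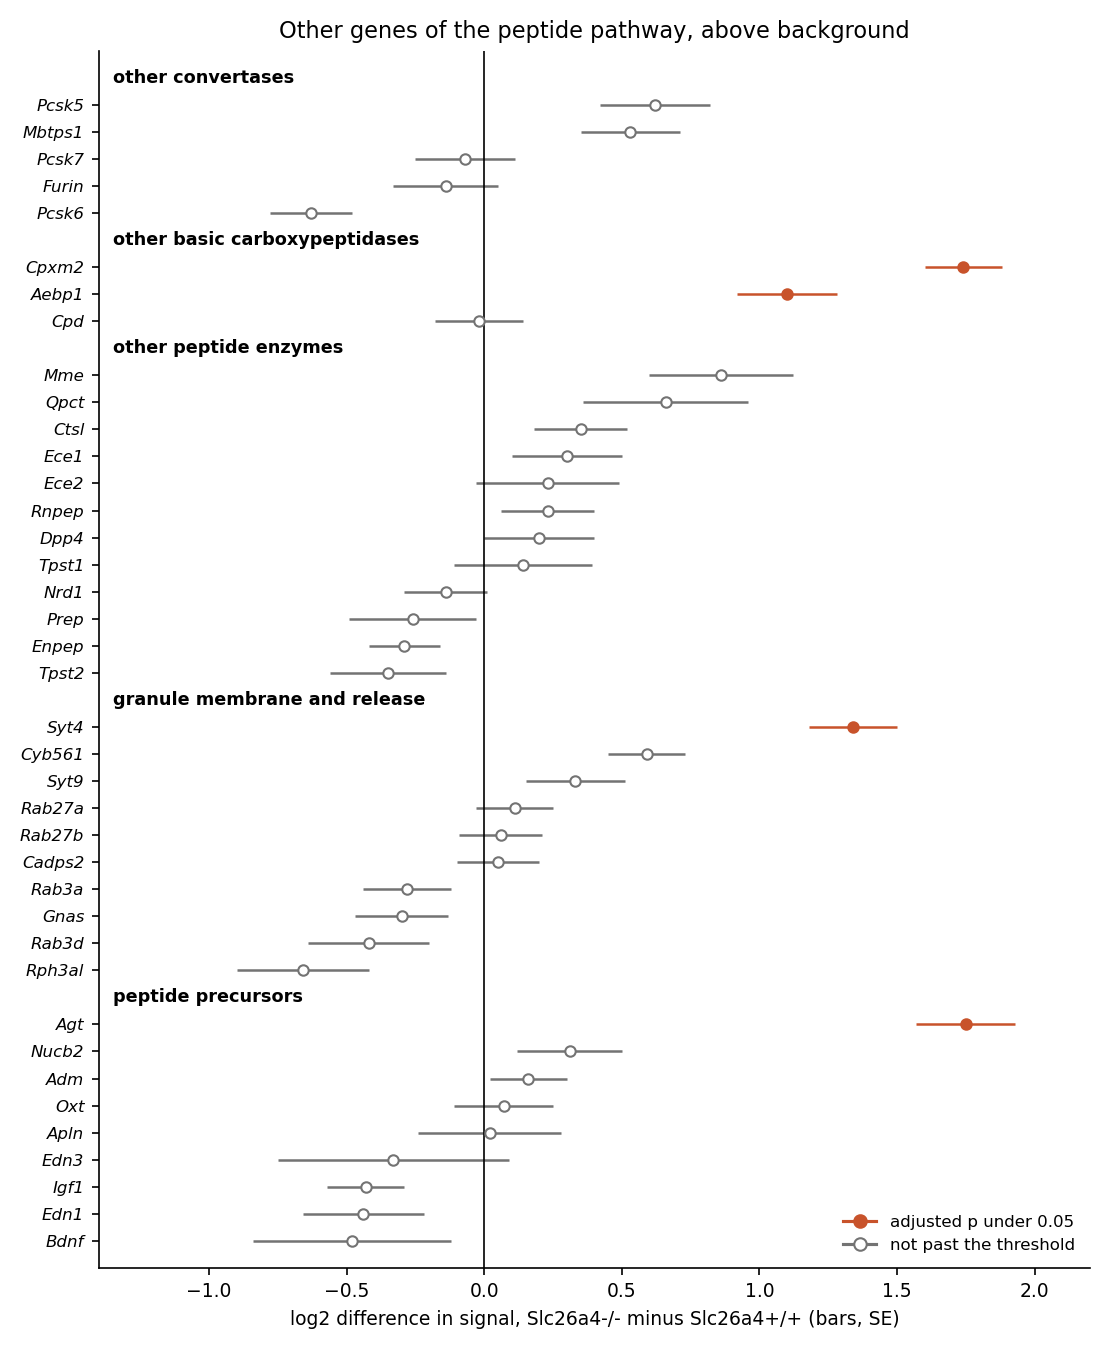
Log2 difference in signal (Slc26a4-/- minus Slc26a4+/+, bars for the SE of limma) of the 39 pathway genes above background on at least 2 arrays of each genotype, grouped by list and ordered by their difference. The 4 filled points, Cpxm2, Aebp1, Syt4 and Agt, passed at an adjusted p under 0.05 and were higher, and the open points did not pass.

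The pattern of Cpe over the 6 arrays was compared with that of 8394 genes above background on every array. The closest by Pearson r of log2 signals were Nrp1 (0.999), Cnmd (0.998), Syt4 (0.997), Fkbp7 (0.997) and Zdhhc23 (0.995), and 199 genes had an r above 0.95. With 3 arrays high and 3 low the coefficient mostly records the difference between the genotypes, over arrays that also differ in sex and RNA quality, and it is given as a description. Nrp1, a receptor of semaphorins and of vascular growth factor, had signals of 1067, 889 and 678 in Slc26a4+/+ and of 2291, 2264 and 2334 in Slc26a4-/-. Cnmd, the cartilage protein chondromodulin, had 1806, 1070.0 and 866 in Slc26a4+/+ against 13157, 12779 and 12835 in Slc26a4-/-. Fkbp7, a protein-folding enzyme of the endoplasmic reticulum, had 683, 518 and 448 in Slc26a4+/+ against 1447, 1483 and 1638 in Slc26a4-/-. Zdhhc23, a palmitoyltransferase, had 541, 522 and 503 in Slc26a4+/+ against 711, 706 and 697 in Slc26a4-/-. In Slc26a4+/+ all 5 genes shared with Cpe the highest signal on replicate 1 and the lowest on replicate 3. They were picked for their r with Cpe over these same arrays, which favours a shared order, so nothing is read from it. The Gapdh ratio was lowest on replicate 1 (2.25) and highest on replicate 3 (10.5), and its part was not tested.

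**Figure D3:**
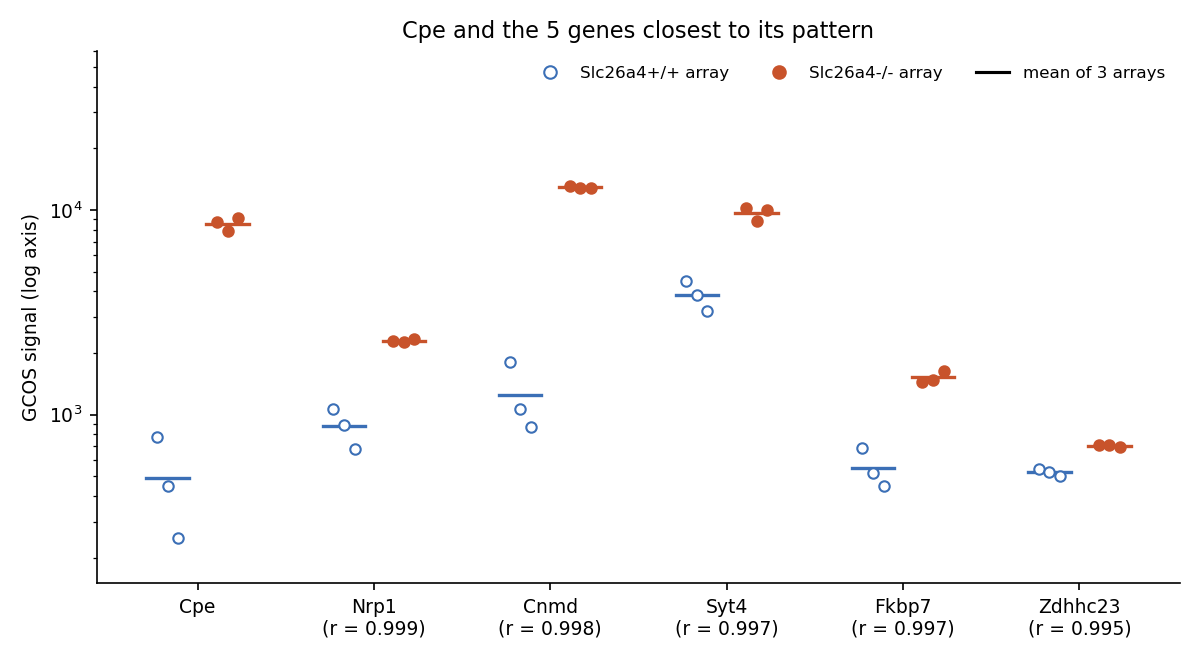
Signals of Cpe and of the 5 genes with the highest Pearson r to it over the 6 arrays, on a log axis, with open points for Slc26a4+/+ (replicates 1 to 3 from left to right), filled points for Slc26a4-/- in the same order, and lines for the mean of 3 arrays. The genotypes did not overlap in any of the 6 genes. As a fold of highest over lowest signal, the Slc26a4+/+ arrays spread more widely in Cpe (249.7 to 778) than in the other 5.

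Markers of the cells that stria vascularis or its surroundings could contribute differed between the genotypes beside Cpe. Of 13 macrophage markers 10 were higher in Slc26a4-/- and 0 were lower by limma, against 1.88% and 0.803% of all genes. Csf1r (log2 difference 0.91, limma adjusted p = 0.0501) and Adgre1 (1.10, adjusted p = 0.0513) narrowly did not pass. Both were higher in Slc26a4-/- without overlap, and another probe set of Csf1r passed. Itgam was below background on all arrays. Of 9 markers of spiral ligament fibrocytes, 5 were higher (Otos, Dcn, Ucma, Chad and Col1a2) and 0 lower. Coch (log2 difference 0.17), Col2a1 (0.31), Col1a1 (-0.59) and Pou3f4 (-0.75) did not pass. The tissue itself was recognised by its own markers, with 7 of 7 for marginal cells and 8 of 9 for intermediate cells above background. Of 9 markers of intermediate cells and melanocytes, 2, Tyrp1 and Pmel, were higher, and the summed signals overlapped. Of 7 markers of marginal cells, 2, Kcne1 and Atp13a5, were lower, another probe set of Esrrb passed while the brightest did not, and the summed signal was 52725 to 70042 in Slc26a4+/+ against 39330 to 41345 in Slc26a4-/-. From these same arrays the study had reported Cd68, Ptprc, Lyz2, Mpeg1, C1qa, C1qb, Lgals3, Adgre1, Ctss and Otos as higher. It had reported Kcnq1, Kcne1 and Atp1b2 as lower. Counts in the lists that hold these genes are therefore a description. Among 2 measured Schwann cell markers 1, Pmp22, was higher. The part of these cells in the signals of Cpe, Pam, Cpxm2, Aebp1, Cpm, Syt4 and Agt was not tested.

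Markers of the cells best known for this pathway were mostly below background. Of 6 measured markers of neuroendocrine and chromaffin cells, 0 were higher and 0 lower by limma, and 4 were below background on all arrays. An unadjusted p under 0.05, which 14.9% of all genes had, was found for 0 of the 6. The summed signal of the 6 was 546 to 1082 in Slc26a4+/+ against 887 to 964 in Slc26a4-/-. Th, the enzyme that starts catecholamine synthesis, had signals of 92.8, 221 and 163 in Slc26a4+/+ and of 145, 141 and 165 in Slc26a4-/-, below background on each array. Dbh was above background on 1 Slc26a4+/+ array and on 2 Slc26a4-/- arrays, and Syp on 1 Slc26a4-/- array. Of 9 neuronal markers 0 were higher and 0 lower, 1 had an unadjusted p under 0.05, and 7 were below background on all arrays, Tubb3, Snap25 and Gap43 among them. Syt1 was above background on 2 Slc26a4+/+ arrays and 1 Slc26a4-/- array, and Map2 on 2 Slc26a4-/- arrays. The summed signal of the neuronal markers was 736 to 828 in Slc26a4+/+ against 678 to 711 in Slc26a4-/-. The 3 markers of basal cells and the 4 of endothelial cells and pericytes had 0 higher and 0 lower by limma, with 0 and 1 at an unadjusted p under 0.05. The 1 erythrocyte marker measured was below background on all arrays. So was Pecam1 among the 4 endothelial and pericyte markers, of which 3 were above it on at least 2 arrays of a genotype. A marker below background does not show that its cell type is absent.

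**Figure D4:**
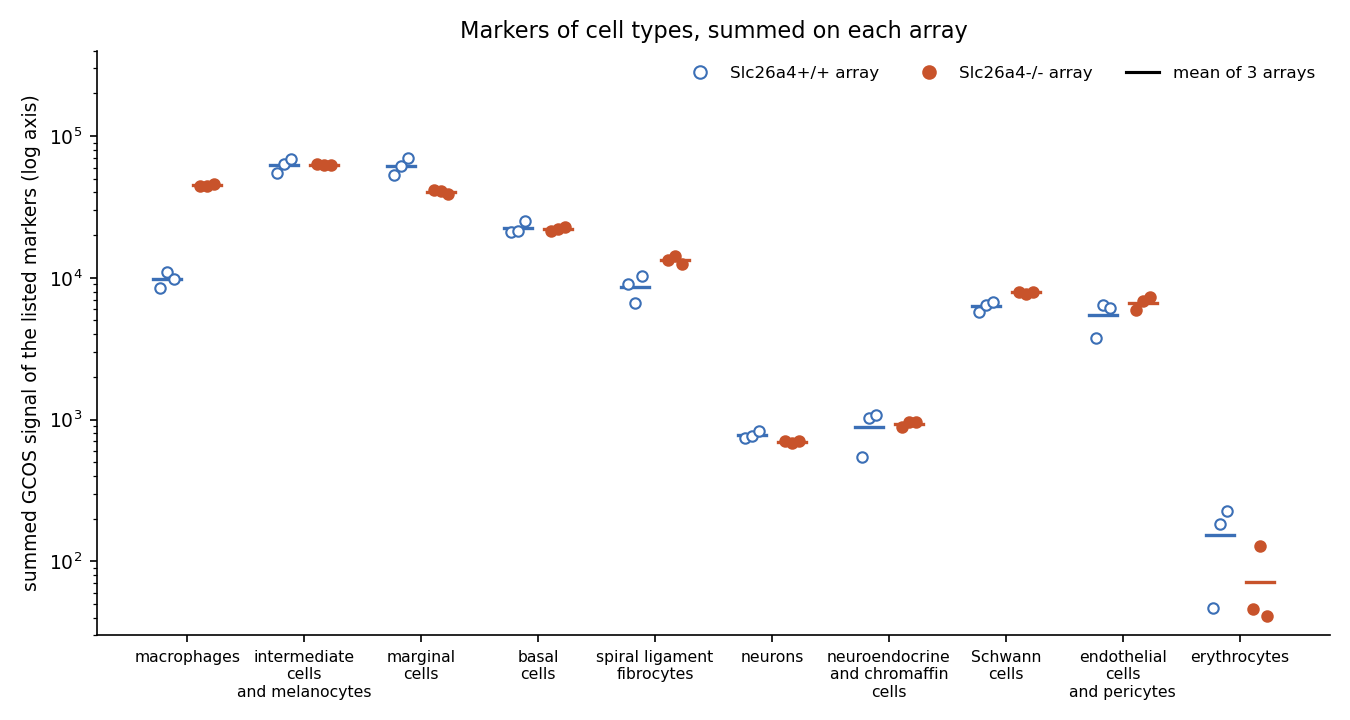
Signals of the listed markers of each cell type summed on each array, on a log axis, with open points for Slc26a4+/+, filled points for Slc26a4-/- and lines for the mean of 3 arrays. The macrophage sums were 8508 to 11061 in Slc26a4+/+ against 44646 to 45737 in Slc26a4-/-, and the sums of neuronal and neuroendocrine markers were at most 1082 on every array.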

How the data were processed

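Total RNA of stria vascularis was hybridised to 6 Affymetrix mouse genome arrays, 3 for each genotype, and arrays were grouped by the labels. The authors deposited an intensity, or signal, for every probe set on every array. It is linear, and GCOS, which the submitters' processing notes name, had subtracted background and scaled the arrays. No source used here gives its version or scaling target. Of 45101 probe sets 64 controls were left out. The platform annotation gave 1 symbol to 34945 probe sets, several to 932, which were not named, and none to 9160. Each gene stands by the probe set that was brightest by mean log2 signal.

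Signals under 1, 172 values, were set to 1. Log2 signals were compared with R 4.3.3 and limma 3.58.1 (lmFit, eBayes with trend), two-sided, with Benjamini-Hochberg adjustment over 45037 probe sets and a threshold of 0.05. The script was tested on simulated data, with changes placed in probe sets of higher signal. It found 26% of simulated log2 changes of 1 and 83% of those of 2. A gene that did not pass is therefore not shown to be unchanged. A probe set was below background where it did not exceed the 95th percentile that 44 probe sets of olfactory receptors had on the array. Such a gene in 1 genotype gets a bound, the mean of the brighter genotype over the higher of background and signal in the other. No comparison of levels was made between probe sets beyond the background call, the brightest or averaged probe sets and the marker sums. The number of arrays limits the precision.

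Members and lists were chosen with earlier results of these data known. Named were all members, in each list the genes past the threshold (at most 4) and, where fewer than 2 passed, at most 2 further genes with the smallest p, and the 5 genes closest to Cpe. Slc26a4, Xist, Eif2s3y and Gapdh checked the arrays. Genes of the marker lists, Cpd and the precursors listed without values lie outside this rule and were picked once their values had been seen. The labels number the arrays 1 to 3 in each genotype without stating a shared litter or day. Deviations from the genotype means correlated between arrays of the same number (Pearson r of 0.307, 0.195 and 0.155 over 14199 probe sets above background on all arrays), so the number was also used as a block. The study's methods name paired t-tests and describe the pairing for RT-PCR on matched animals. For the arrays they give folds against a fixed cutoff and state no pairing. Pairing the arrays by number was a choice made here, and the paired test on log2 signals is called the methods' t-test. Other alternatives were scaling, pseudocounts, array weights, no trend, a background filter, the Xist signal as a covariate, all probe sets averaged for each gene and each array left out. The RT-PCR, microscopy and Western blots were not analysed here.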

Additional observations from a re-analysis of the deposited data

How the results depend on the processing

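With each array centred on its median, 448 probe sets passed, 359 higher and 89 lower, or 80.1% higher against 68.8% of the 778 (535 higher and 243 lower) without centring. There were 114 without the trend, 4084 with array weights, 27 with a covariate for the Xist signal and 0 by the methods' t-test. With 1 array left out 219 to 1714 passed. Of the 8 probe sets of the members other than Cpe, 0 passed, and with array weights 1 (Pcsk1n). Of the pathway genes 5 passed, against 1 without the trend, 1 with the Xist covariate, 17 with array weights and 0 by the methods' t-test, and 3 to 10 with 1 array left out. The log2 difference of Cpe, 4.27, was 3.86 to 4.68 with 1 array left out and 2.39 over the mean of its probe sets. With replicate number as a block 832 probe sets passed, 0 of the members other than Cpe and 4 of the pathway genes, and of Pam, Cpm, Cpxm2, Aebp1, Syt4 and Agt only Cpm changed its call with the block. No log2 difference of Pam, Cpm, Cpxm2, Aebp1, Syt4 or Agt changed sign in any alternative. Cpxm2 lost its call in 1 of 18 alternatives, Syt4 and Agt in 3, Aebp1 in 7, and Cpm in 8 of 17. The alternatives that leave out an array have fewer arrays. The cause of the other changes was not tested. Genes below background on these arrays give no fold.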
